A study of Homo sapiens with 15 samples.

Results

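Native exon junction complexes that hold CASC3 were compared with native complexes that hold RNPS1, using 4 of the 15 libraries of the series. The rule took the 4 native libraries whose antibody pair names CASC3 or RNPS1, 2 on each side, and paired them by the core protein that they share. The assay was RIPiT-Seq, which purifies a protein complex in 2 successive immunoprecipitations, digests unprotected RNA with RNase I and sequences the protected footprints. None of the 4 was given formaldehyde or cycloheximide. The host line of every library was HEK293 Flp-In TRex, derived from human embryonic kidney, in which a tagged transgene is integrated at 1 site. The first immunoprecipitation used an anti-FLAG antibody in every case. In the EIF4A3 pair, cells expressing FLAG-CASC3 and cells expressing FLAG-RNPS1 were each followed by an antibody against EIF4A3, so the cell line and the protein cannot be told apart there. In the MAGOH pair, cells expressing FLAG-MAGOH were followed by an antibody against CASC3 in one library and against RNPS1 in the other, so the antibody and the protein cannot be told apart. Each antibody pair has 1 library, and there is no replicate check within a pair.

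The exon junction complex is a set of proteins that the spliceosome leaves on a spliced RNA a little upstream of each exon-exon junction. EIF4A3, an RNA helicase, clamps the RNA and is locked by MAGOH and RBM8A. CASC3 and RNPS1 are peripheral proteins that join this core. RNPS1 is a nuclear protein with links to splicing factors, and CASC3 shuttles to the cytoplasm, where translating ribosomes remove the complexes. The study asked which RNAs and which sites carry one or the other.

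Total counts in the EIF4A3 pair were 935667 (CASC3-EIF4A3) and 2232968 (RNPS1-EIF4A3), and in the MAGOH pair 1521092 (MAGOH-CASC3) and 3135860 (MAGOH-RNPS1). Values listed below without names follow this order of the 4 libraries. The CASC3 library was the shallower of both pairs, and values after thinning all 4 to the smallest total are given where they move a count. The summed level of 12 genes that mark the embryonic kidney line was 1491 to 1831 CPM (counts scaled to the library total), with NEFM at 0 in all 4 libraries. That of 15 markers of other cell types was 7.48 to 17.8 CPM, with 8 to 13 of them at 0 and VWF the highest.

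Of the 19 transcripts that passed the transcript test described below, 10 have a single exon, and the first 60 bases of RPPH1 and RMRP are shown because these molecules carry no exon junction. Sequences are from the GENCODE v29 transcripts on hg38.
RPPH1, chr14:20343075-20343407, minus strand: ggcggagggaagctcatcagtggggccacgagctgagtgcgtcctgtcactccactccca
RMRP, chr9:35657754-35658017, minus strand: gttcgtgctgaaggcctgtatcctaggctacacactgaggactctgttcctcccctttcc
RN7SL1 and RN7SL2 are copies of the RNA of the signal recognition particle, and their transcripts of 299 and 300 bases were 98.3% identical, so reads could be split between them. RPPH1 is the RNA of RNase P, which trims precursor tRNAs, and RMRP is the RNA of RNase MRP, which cuts precursor ribosomal RNA.

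RNAs of small size led the CASC3 side in both pairs, together with a small set of spliced messages. The test was edgeR's quasi-likelihood test with the shared core protein as a term, and calls have a Benjamini-Hochberg adjusted p under 0.05. Its spread joins the disagreement between the pairs, at 1 degree of freedom, with a value borrowed from the other transcripts, at 11.3. A call therefore does not show that the pairs agree closely in size for that transcript. The test called 19 of 12572 transcripts higher on the CASC3 side, which is 0.151% of those tested, and 0 lower on it. At an unadjusted p under 0.05 there were 718 higher and 482 lower, and DESeq2's Wald test called 16. Because several annotated transcripts overlap and share reads, the 19 calls stand for 13 loci, of which 5 have a single exon and 8 have more. Each transcript has only 1 residual degree of freedom of its own in this fit, and the number of calls moved with the setting. It was 0 where the spread was pooled with the crosslinked and RNA-seq libraries, 7 without the pairing term, 64 with DESeq2 size factors, 113 without a filter on low counts and 124 after thinning, an alternative chosen after seeing the data. Fits that left out 1 library had to drop the pairing term as well, and called 6 without CASC3-EIF4A3, 15 without RNPS1-EIF4A3, 11 without MAGOH-CASC3 and 33 without MAGOH-RNPS1, beside the 7 without the pairing term alone. All 19 kept a positive log2 fold change in each of these alternatives other than thinning, where this was not counted. These fits reuse the same libraries, in which both pair ratios were positive for all 19, so the kept sign is not separate support.

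**Figure D1:**
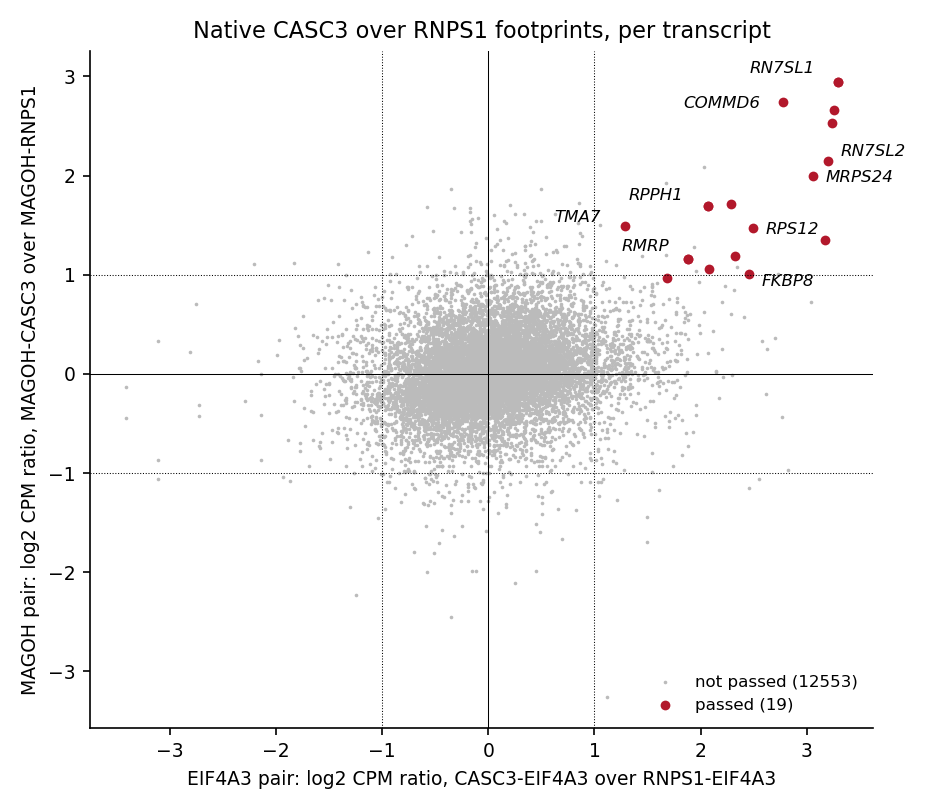
Each point is 1 of 12572 transcripts, with the log2 CPM ratio of CASC3-EIF4A3 over RNPS1-EIF4A3 on the x axis and that of MAGOH-CASC3 over MAGOH-RNPS1 on the y axis, both centred on the median transcript. The 19 transcripts that passed the test (red) all lie in the upper right, where both pairs are higher on the CASC3 side, and dotted lines mark a 2-fold ratio.

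The signal recognition particle RNA differed most. RN7SL1 stood at 295 CPM in CASC3-EIF4A3, 31.8 in RNPS1-EIF4A3, 218 in MAGOH-CASC3 and 27.7 in MAGOH-RNPS1. Both CASC3 libraries thus lay far above both RNPS1 libraries, with a fitted log2 fold change of 3.15 ± 0.20 (SE) and an adjusted p of 1.1e-05 in edgeR. For RN7SL2 the table holds overlapping entries. The 300-base transcript, which the table names Metazoa_SRP and GENCODE names RN7SL2, gave 175, 19.3, 125 and 21.05 CPM in the same order, with a log2 fold change of 2.91 ± 0.22 (SE). An 80-base entry that the table itself names RN7SL2 gave 129, 14.3, 70.3 and 15.3 CPM, with a log2 fold change of 2.72 ± 0.27 (SE), and the sides did not overlap for either entry.

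The catalytic RNAs of the RNase P family also passed, with smaller differences. RPPH1 measured 211 CPM in CASC3-EIF4A3, 53.7 in RNPS1-EIF4A3, 89.4 in MAGOH-CASC3 and 27.4 in MAGOH-RNPS1. Its log2 fold change was 1.91 ± 0.20 (SE), with the RNPS1-EIF4A3 library below MAGOH-CASC3. RMRP was the most abundant of these, at 1172, 344, 575 and 262 CPM, with a log2 fold change of 1.51 ± 0.22 (SE). In the 2 RNA-seq libraries of rRNA-depleted RNA the same RNAs were abundant, at 14550 and 17607 CPM for RN7SL1 and 15950 and 19708 CPM for RPPH1. Whether their footprints are protected by a junction complex or are other RNA carried through the purification was not tested. Of the 13 transcripts tested in the list of small noncoding RNAs 7 passed, all higher, beside 0.151% over all transcripts. The 7 are entries of RN7SL1, RN7SL2, RPPH1 and RMRP, several of them overlapping entries with the same counts. The list's medians, 1.88 and 1.15, therefore count some reads more than once. In both pairs 9 of the 13 were positive (69.2%, beside 29.1% over all transcripts). AC079949.1, a clone-named single-exon transcript of 57 bases on chromosome 12, was the other unspliced locus, with 150, 41, 39 and 30 counts.

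Of the 8 spliced loci that passed, 5 had 3 to 6 exons. RPS12, a protein of the small ribosomal subunit, stood at 664 CPM in CASC3-EIF4A3, 127 in RNPS1-EIF4A3, 229 in MAGOH-CASC3 and 83.2 in MAGOH-RNPS1. MRPS24, a protein of the small mitochondrial ribosomal subunit, gave 75.9, 8.96, 51.9 and 12.4 CPM. COMMD6, a member of the COMM domain family, gave 31.0, 4.03, 30.9 and 3.83 CPM. Its total of 97 counts is under the 100 that the naming rule asks of a transcript, so it was named outside that rule. Both CASC3 libraries exceeded both RNPS1 libraries for each of these 3 genes, and the log2 fold changes were 2.00 ± 0.24, 2.56 ± 0.30 and 3.02 ± 0.36 (SE). URGCP-MRPS24, a readthrough transcript, shares exons with MRPS24, and reads could count for both. TMA7, a small protein linked to translation, had 75, 78, 71 and 51 counts, which after scaling to depth gave 80.2, 34.9, 46.7 and 16.3 CPM. ARC, which neurons use at synapses and which is also an immediate early gene, had 88.7, 18.4, 51.3 and 22.3 CPM.

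FKBP8, USF2 and EGFL7, named after their values were seen because the naming rule did not reach them, have 9, 10 and 10 exons. FKBP8, an anchored prolyl isomerase of the outer mitochondrial membrane, measured 696, 137, 404 and 204 CPM. USF2, a transcription factor that binds E-boxes, measured 321, 107, 289 and 150 CPM. EGFL7, a secreted protein, measured 144, 36.3, 139 and 67.6 CPM. The MAGOH pair differed less than the EIF4A3 pair for each, with log2 ratios of 1.01, 0.97 and 1.06 against 2.46, 1.68 and 2.08.

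**Figure D2:**
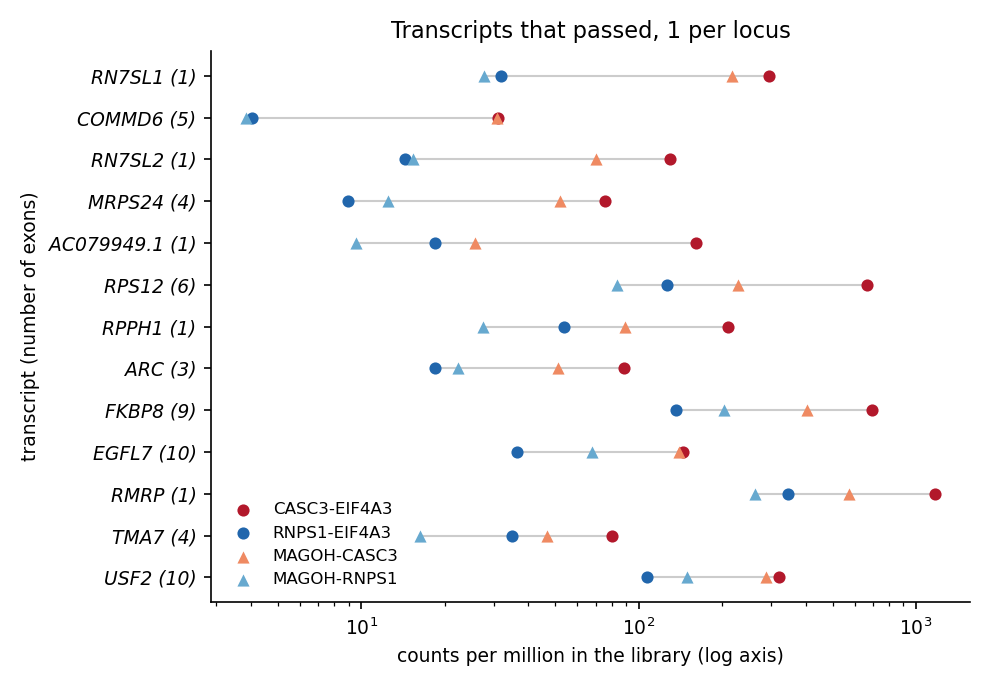
CPM on a log axis in the 4 native libraries for 1 transcript of each of the 13 loci that passed, with its number of exons in brackets; circles are the EIF4A3 pair and triangles the MAGOH pair, red for CASC3 and blue for RNPS1. For RN7SL1, COMMD6, RN7SL2 and MRPS24 both red points lie well to the right of both blue ones, and for RPPH1, RPS12 and RMRP the blue circle comes nearer to the red triangle.

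All 19 transcripts were also measured in the 4 crosslinked libraries of FLAG-CASC3 and FLAG-RNPS1 cells without cycloheximide, which the native fit did not use but which share the lines of the EIF4A3 pair. There 494 of 12192 transcripts were higher with CASC3 (4.05%) and 118 lower (0.968%) by the same edgeR test. Of the 19, 19 had a positive log2 fold change and 14 passed, beside 48.0% positive over all transcripts in both fits. The 19 are entries of 13 loci, and entries of 1 locus share reads, so these counts are not of separate members. MRPS24 had a crosslinked log2 fold change of 6.07 ± 0.61 (SE), RPS12 one of 6.06 ± 0.73 and COMMD6 one of 4.59 ± 0.53. RPPH1, RMRP and AC079949.1 did not pass there, at 1.72 ± 0.87, 1.35 ± 0.56 and 1.85 ± 0.90.

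On the RNPS1 side no transcript passed, and the 12 leading ones are described by their values. PPT2, a lysosomal thioesterase, had 24 counts in CASC3-EIF4A3, 161 in RNPS1-EIF4A3, 77 in MAGOH-CASC3 and 310 in MAGOH-RNPS1, with a log2 fold change of -1.11 ± 0.22 (SE) and an adjusted p of 0.098 in edgeR. FAM219B had 82, 416, 161 and 594 counts, at -0.89 ± 0.18. WRAP73, a WD-repeat protein of centrosomes, had 41, 202, 87 and 331 counts, at -0.90 ± 0.20. Scaled to depth, the 2 RNPS1 libraries lay above both CASC3 libraries for FAM219B, with 186 and 189 CPM against 87.6 and 106. COG6, a subunit of a Golgi tethering complex, had 25, 128, 24 and 111 counts, and UBAC2, a membrane protein of the endoplasmic reticulum, had 18, 91, 38 and 166. VIPR1, a receptor for vasoactive intestinal peptide, had 7, 47, 25 and 108 counts, and KIT, a receptor tyrosine kinase, had 10, 59, 13 and 54. FAM66B, COMMD3, LINC00202-1, CDK20 and B9D1 complete the 12, with fitted log2 fold changes of -0.96 to -1.10. The 12 had 5 to 9 exons in 8 cases and 12 to 21 in 4. Among all tested transcripts with at least 100 counts, 1783 had 4 to 6 exons, 3325 had 7 to 12 and 2959 had 13 to 24. In the crosslinked libraries, which share the lines of the EIF4A3 pair, 10 of the 12 had a negative log2 fold change, and none passed. Over all transcripts in both fits, 48.0% were positive there.

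The pairs shared a direction more often among deeply counted transcripts. The same sign was found for 58.2% of the 12572 transcripts, 59.4% of the 9968 with at least 100 counts over the 4 libraries, 63.8% of the 3868 with at least 500 and 69.4% of the 751 with at least 2000. Across transcripts, which are not independent, Pearson's r between the pairs' ratios was 0.21 over all and 0.49 over the deepest class. A ratio of at least 2-fold in both pairs was found for 29 transcripts on the CASC3 side (0.231%) and 7 on the RNPS1 side (0.0557%), and with at least 100 counts for 19 and 0. The ratios spread more widely in the EIF4A3 pair (SD 0.57) than in the MAGOH pair (SD 0.39). No transcript passed the test of the difference between the pairs, in a fit whose spread came from the crosslinked and RNA-seq replicates, and 231 of 12572 had an unadjusted p under 0.05. Neither pair alone called a transcript in that fit (657 and 148 at an unadjusted p under 0.05, 15 of them in both with the same direction).

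Transcripts with few exons leaned to the CASC3 side, more so in the EIF4A3 pair. Among transcripts with at least 100 counts, the median log2 ratio was 0.36 in the EIF4A3 pair and 0.05 in the MAGOH pair for 183 with a single exon, and 0.35 and 0.08 for 655 with 2 or 3. It was 0.13 and 0.04 for 1783 with 4 to 6, and -0.11 and -0.04 for 2959 with 13 to 24. The order of these classes was the same in both pairs only in outline, since the MAGOH medians of these classes ran from -0.04 to 0.08. GC content separated the pairs: spliced transcripts over 60% GC had medians of 0.30 and -0.04, and those under 40% had -0.16 and 0.06.

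Messages of the cytoplasmic ribosome leaned to the CASC3 side as a group, and so did chaperones. In the lists below, the share of members with a positive ratio in both pairs can be set beside 29.1% over all 12572 transcripts. Of 48 proteins of the large subunit, 40 were positive in both pairs (83.3%), 19 were higher at an unadjusted p under 0.05, none was lower and none passed. Of 32 proteins of the small subunit, 26 were positive in both (81.3%), 14 were higher at that unadjusted level, none was lower, and RPS12 passed. RPL18 measured 380 CPM in CASC3-EIF4A3, 150 in RNPS1-EIF4A3, 262 in MAGOH-CASC3 and 158 in MAGOH-RNPS1, with a log2 fold change of 1.09 ± 0.21 (SE) and an adjusted p of 0.092. RPLP0, the stalk protein, followed with 342, 157, 268 and 160 CPM, and RPL22 with 1011, 601, 391 and 211. For RPL18 and RPLP0 both CASC3 libraries lay above both RNPS1 libraries, while for RPL22 the RNPS1-EIF4A3 library lay above MAGOH-CASC3. The 74 proteins of the mitochondrial ribosome did not share this lean, with medians of 0.04 and 0.05, although MRPS24 was among them.

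Translation factors were positive in both pairs in 29 of 49 cases (59.2%), with medians of 0.19 and 0.14, and none passed. EIF3A, a scaffold subunit of the factor that loads the small ribosomal subunit, had 798, 444, 398 and 260 CPM, and EIF5A, which helps ribosomes past proline stretches, had 363, 238, 293 and 206. Of 31 heat shock proteins and chaperonin subunits, 22 were positive in both (71.0%), with 8 higher and 0 lower at an unadjusted p under 0.05. STIP1, which bridges HSP70 and HSP90, had 478, 326, 298 and 193 CPM, and HSP90AA1 had 1852, 1339, 1052 and 660. Within each pair the CASC3 library was the higher for these genes, but MAGOH-CASC3 lay below RNPS1-EIF4A3 for EIF3A, STIP1 and HSP90AA1.

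Chromatin regulators differed more between the pairs, with medians of 0.36 and 0.09 over 46 members, of which 26 were positive in both (56.5%). BRD3, a reader of acetylated histones, had 514, 180, 316 and 231 CPM, and the histone methyltransferase EHMT2 had 480, 201, 371 and 323. SMARCE1, a subunit of a nucleosome remodeller, had 115, 76.1, 61.1 and 40.5. The ratio of the MAGOH pair was under 0.5 on the log2 scale for BRD3 and EHMT2 and 0.61 for SMARCE1.

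Nucleoporins and transport receptors leaned the other way, with 19 of 36 negative in both pairs (52.8%, beside 29.1% over all transcripts) and medians of -0.19 and -0.13. At an unadjusted p under 0.05, 5 were lower on the CASC3 side and 1 was higher, and none passed. NUP155, a scaffold nucleoporin, measured 161, 238, 147 and 216 CPM, and CSE1L, which returns importin alpha to the cytoplasm, measured 250, 367, 170 and 234. For NUP155 both RNPS1 libraries lay above both CASC3 libraries. RAN, the small GTPase that gives transport its direction, was the 1 on the other side, with 358, 249, 234 and 170 CPM. SNRPA, an RNA-binding protein of the U1 particle, had 153, 305, 162 and 258 CPM, the lowest p of the core spliceosome list, whose medians were 0.07 and 0.01.

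The medians of further lists are given in the order EIF4A3 pair, then MAGOH pair. Replication-dependent histones (38 tested), whose genes have no introns, had medians of 0.28 and 0.07. HIST1H4E had 51.3, 32.2, 31.6 and 17.5 CPM. Proteasome subunits (32) stood at 0.11 and 0.11, nuclear-encoded respiratory chain subunits (72) at 0.12 and 0.02, secretory pathway genes (51) at 0.09 and 0.10 and cell cycle genes (42) at 0.07 and 0.07. Zinc finger genes (367) stood at 0.02 and 0.12. ZNF446 led them with 109, 29.1, 86.1 and 45.6 CPM and an adjusted p of 0.056 in edgeR. Natural targets of nonsense-mediated decay (27), a pathway that junction complexes take part in, stood at 0.18 and 0.05. Proteins of the junction complex itself (13) had medians of 0.17 and 0.14 for their own messages, and none of these passed.

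**Figure D3:**
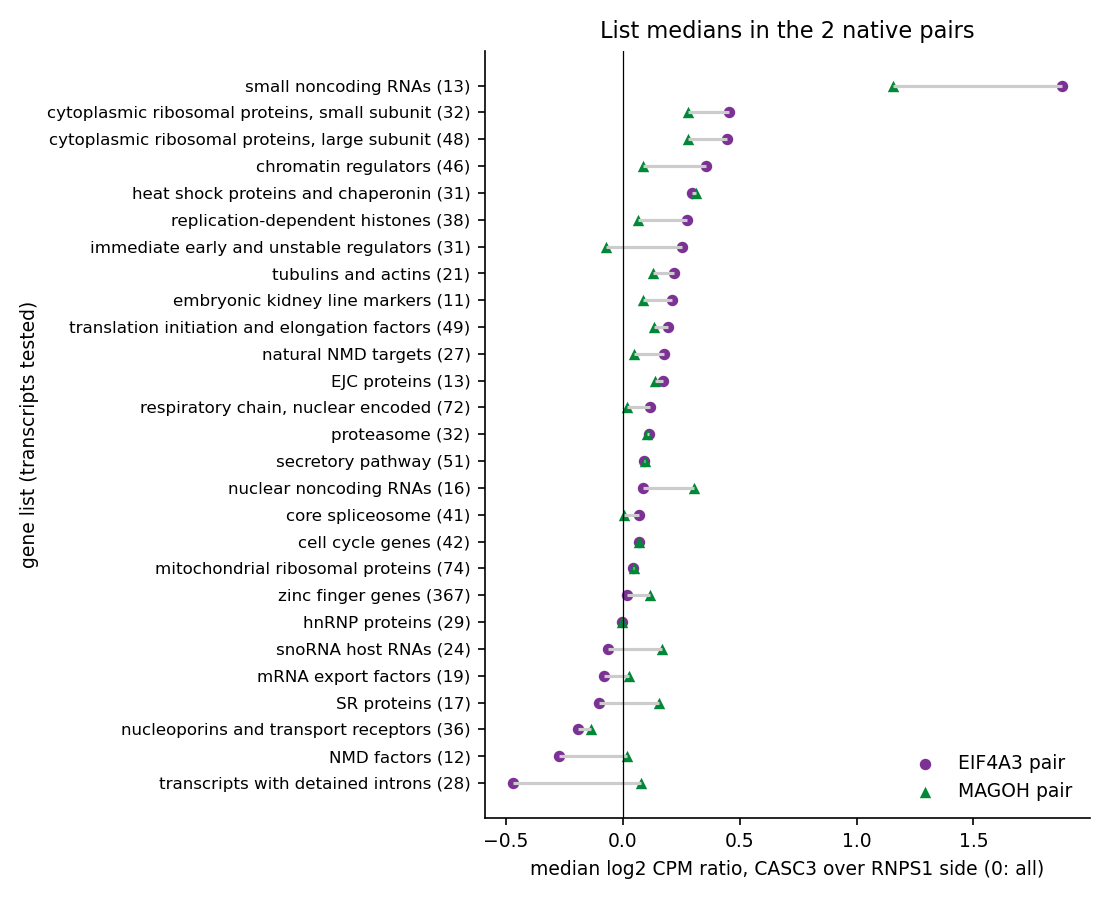
Median log2 CPM ratio of CASC3 over RNPS1 for 27 gene lists in the EIF4A3 pair (purple circles) and the MAGOH pair (green triangles), with the number of transcripts tested in brackets and 0 as the median of all transcripts. Small noncoding RNAs, a list with overlapping entries that share reads, stand apart at 1.88 and 1.15. Ribosomal proteins and heat shock proteins lie right of 0 in both pairs, and nucleoporins lie left of 0 in both.

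The genes of the purified proteins were read with caution, since transgene RNA may be counted with them. MAGOH had 40.6 CPM in CASC3-EIF4A3, 28.7 in RNPS1-EIF4A3, 170 in MAGOH-CASC3 and 84.8 in MAGOH-RNPS1. Both libraries from FLAG-MAGOH cells were the high ones. CASC3 had 329, 234, 239 and 234 CPM, highest in the library from FLAG-CASC3 cells, and RNPS1 had 357, 522, 218 and 201 CPM, highest in the library from FLAG-RNPS1 cells. EIF4A3 had 50.2, 66.3, 58.5 and 42.7 CPM and RBM8A 98.3, 94.5, 77.6 and 43.7. None of these 5 genes passed the native test.

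The position of footprints along the transcript differed between the sides in the same direction in both pairs. Over 8056 transcripts with 10 or more exons, the first 3 exons held 19.3% of counts in CASC3-EIF4A3 (95% exact Clopper-Pearson interval 19.2% to 19.4%) and 22.8% in RNPS1-EIF4A3. They held 24.2% in MAGOH-CASC3 and 26.4% in MAGOH-RNPS1. The CASC3 library of each pair was thus the lower at the 5′ end, and the MAGOH libraries were both higher than the EIF4A3 ones. The last 3 exons held 19.9%, 16.2%, 16.8% and 15.9% in the same order. The ratio of the last 3 to the first 3 was 1.03 in CASC3-EIF4A3 against 0.71 in RNPS1-EIF4A3 and 0.69 in MAGOH-CASC3 against 0.60 in MAGOH-RNPS1. It was 1.39 and 1.40 in the crosslinked CASC3 libraries, 0.86 and 0.95 in the crosslinked RNPS1 libraries, 0.85 in native MAGOH-EIF4A3 and 3.07 and 3.18 in RNA-seq. These intervals cover counting error only, since reads were amplified by PCR and carry no molecular identifiers.

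Exon by exon, the ratio of CASC3 to RNPS1 shares was lowest at exons 2 and 3 in the EIF4A3 pair and at exon 1 in the MAGOH pair, and was larger further along. On the log2 scale it was -0.16 in the EIF4A3 pair and -0.15 in the MAGOH pair at exon 1, -0.30 and -0.11 at exon 2, -0.24 and -0.05 at exon 4, 0.11 and 0.04 over exons 11 to 15 and 0.36 and 0.14 beyond exon 25. Counted from the 3′ end, the second-last exon stood at 0.17 and 0.14. The last exon set the pairs apart, at 0.43 and 0.04.

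**Figure D4:**
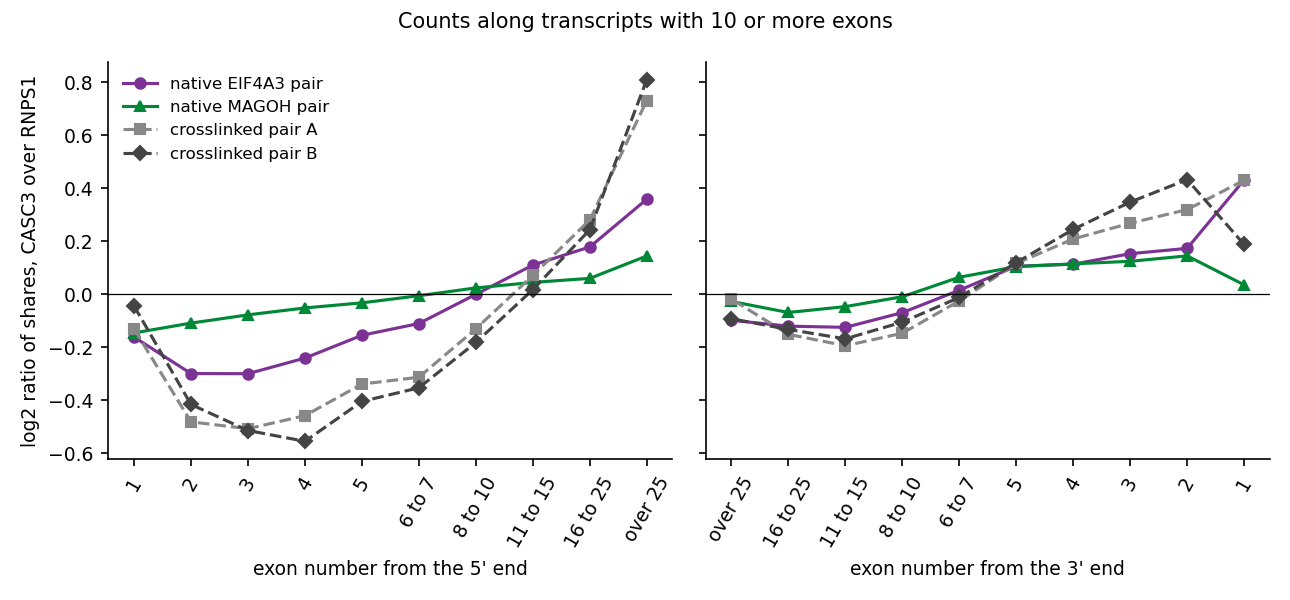
Log2 ratio of the share of counts, CASC3 over RNPS1, by exon number from the 5′ end (left) and from the 3′ end (right) in 8056 transcripts with 10 or more exons, for the native EIF4A3 and MAGOH pairs (solid) and 2 crosslinked pairs (dashed). Every line is below 0 at exons 2 to 5 and above 0 beyond exon 25, and the MAGOH pair is the flattest from exon 2 on.

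Among transcripts with 10 or more exons, the gradient was present in each of the subsets that follow. The last 4 exons over the first 4 gave a log2 ratio of 0.50 in the EIF4A3 pair and 0.20 in the MAGOH pair over all transcripts, 0.47 and 0.19 without the 1% of transcripts with most counts, and 0.45 and 0.21 over coding internal exons only. Transcripts with 20 or more exons gave 0.63 and 0.22, and those with 10 to 19 gave 0.44 and 0.18. In 7 classes of exon GC content, internal exons near the 3′ end over those near the 5′ end were positive throughout, from 0.27 to 0.47 in the EIF4A3 pair and from 0.15 to 0.26 in the MAGOH pair. Depth moves with the side in both pairs, and its part in the gradient was not tested at this level. First exons held 10.9% of all counts in CASC3-EIF4A3, 11.6% in RNPS1-EIF4A3, 15.9% in MAGOH-CASC3 and 17.5% in MAGOH-RNPS1, and last exons held 15.7%, 12.5%, 12.9% and 12.4%. Within the 76 ribosomal protein transcripts the first exon had a log2 ratio of 0.27 in the EIF4A3 pair, unlike the general order. In the MAGOH pair it followed the general order, at -0.15. The value of the EIF4A3 pair leans on RPS12. Its exon 1 alone had 451 counts in CASC3-EIF4A3, beside 2487 for all these first exons, and 67 beside 3674 in RNPS1-EIF4A3. The ratio without RPS12 was not computed, so 0.27 is not shown to be a trait of the group.

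The same shift was tested transcript by transcript, in a test chosen after seeing the data. For 8252 transcripts with 6 or more exons, counts of the exons after the midpoint were set against those before it, leaving out a middle exon, and edgeR's quasi-likelihood test asked whether that ratio differed between the sides. It was larger on the CASC3 side for 70.0% of transcripts in the EIF4A3 pair and 63.6% in the MAGOH pair, and for 3866 in both (46.8%) against 1073 smaller in both (13.0%). The test called 65 transcripts with more 3′ counts on the CASC3 side (0.788%) and 5 with fewer (0.0606%). Without the pairing term it called 0, with 156 at an unadjusted p under 0.05, and after thinning it called 30. With 1 library left out and no pairing term it called 0 to 2. Of the 65, 52 had the same direction in the crosslinked libraries, where 75.5% of 8125 transcripts had it, and 14 passed there, beside 4.95% called over all.

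NOP56, a core protein of box C/D snoRNPs whose introns host snoRNAs, had 82.0% of its counts after the midpoint in CASC3-EIF4A3, 56.6% in RNPS1-EIF4A3, 59.3% in MAGOH-CASC3 and 47.4% in MAGOH-RNPS1. Its log2 ratio of ratios was 1.23 ± 0.22 (SE), with an adjusted p of 5.9e-05 in edgeR, and it was 2.93 in the crosslinked libraries. Exons 9 to 12 of its 12 held 78.9%, 50.5%, 54.0% and 37.7% of its counts. Both CASC3 libraries stood above both RNPS1 libraries here.

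CCAR1, a coactivator in cell cycle and apoptosis control, had 70.2%, 45.03%, 41.05% and 29.8% after the midpoint of its 25 exons, at 1.13 ± 0.24. EIF3A had 85.1%, 74.98%, 81.4% and 62.3%, at 1.17 ± 0.23. TAF15, an RNA-binding protein, had 72.6%, 57.9%, 58.0% and 41.6%. For CCAR1 the RNPS1-EIF4A3 library exceeded MAGOH-CASC3, so the order held within pairs only.

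Other called transcripts included MYH9 and MDM2 and a relative of each. MYH9, a nonmuscle myosin heavy chain with 41 exons, had 69.7%, 54.4%, 63.1% and 52.4% after the midpoint, and its relative MYH10 had 76.8%, 61.1%, 74.0% and 63.8%. MDM2, the ubiquitin ligase of p53, had 82.4%, 66.8%, 58.8% and 43.5%, and MDM4 had 73.9%, 57.0%, 58.3% and 41.6%. TAOK1, a kinase of the MAP kinase cascade, had the lowest p, but exon 20, its last, held 91.0%, 85.8%, 64.5% and 24.4% of its counts. The opposite direction was called for GAPDH, a glycolytic enzyme, with 70.3%, 82.4%, 74.6% and 85.5%, and for RPS2, a small-subunit protein, with 56.4%, 74.7%, 57.7% and 69.0%. These genes, apart from those of the lists, were named after their values were seen.

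**Figure D5:**
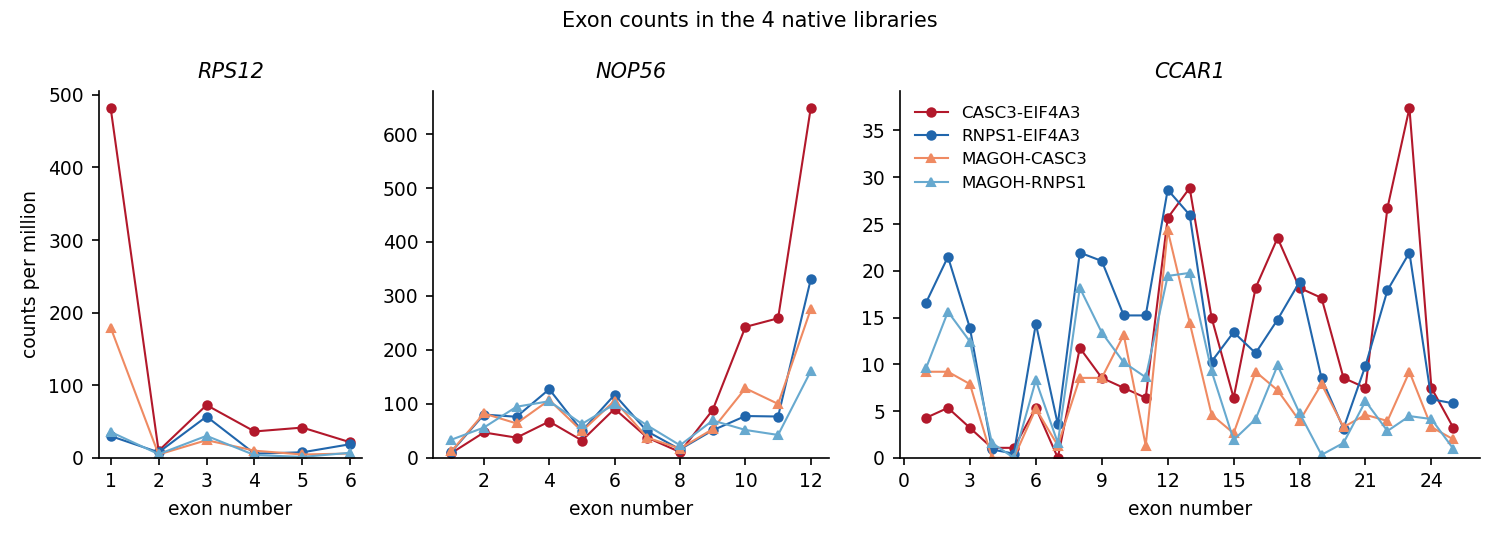
CPM by exon number in the 4 native libraries for RPS12 (6 exons), NOP56 (12) and CCAR1 (25); circles are the EIF4A3 pair and triangles the MAGOH pair, red for CASC3 and blue for RNPS1. RPS12 is set apart by exon 1, at 482 and 179 CPM in the CASC3 libraries against 30.01 and 35.7, NOP56 by exons 10 to 12, and CCAR1 by lower CASC3 values at exons 1 to 3.

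Single exons were tested in the same way. There the spread borrowed from other exons weighed 224 degrees of freedom against 1 from the pairs, so a call says little about their agreement. The exon test called 154 of 51477 exons higher on the CASC3 side (0.299%) and 19 lower (0.0369%), with 2536 and 1927 at an unadjusted p under 0.05. It called 0 without the pairing term and 0 with pooled spread, 85 without a filter, 78 after thinning and 18 by DESeq2's Wald test. With 1 library left out and no pairing term it called 0 to 6. The 154 higher exons carry 113 gene symbols, with several each from PKD1 and BRD3, and some are listed under more than 1 transcript with the same reads. They are therefore not separate members. Among called exons of transcripts with 10 or more exons, 44.9% of the 78 higher ones lay in the last 4 exons and 9.0% in the first 4, beside 19.8% and 26.8% of all tested exons. Of the 14 lower ones, 85.7% lay in the first 4. The next shares are of exons whose place in the transcript is known from GENCODE v29, whatever the size of the transcript. Among the higher exons, first exons made up 16.8% (25) and last exons 5.37% (8). These classes made up 12.7% and 11.3% of the tested exons. Exons higher at an unadjusted p under 0.05 went the other way, with 6.85% first and 16.4% last exons. Exons 1 to 4 made up 59 of the 154, beside 19166 of the 51477 tested. The median GC content was 62.9% for the higher exons and 51.4% for the lower ones, beside 55.8% over all tested. At an unadjusted p under 0.05 it was 57.9% for the higher exons and 56% for the lower ones. GC classes of internal exons, in transcripts with 10 or more exons, ran in opposite directions in the pairs. Above 65% GC, the log2 ratio of their share of library counts was 0.38 in the EIF4A3 pair and -0.03 in the MAGOH pair. At 40% GC or less it was -0.26 and 0.12.

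The last 30 bases of 10 of the exons that led each direction are shown because a junction complex is placed in this stretch; capitals mark bases 20 to 24 upstream of the junction, where the complex is known to sit, and coordinates are hg38. The first 4 were higher on the CASC3 side and the rest lower.
COMMD6 exon 2, chr13:75537764-75537793, minus strand: agcgagCCGCCgctggatgctaagtccgat
MRPS24 exon 1, chr7:43869457-43869486, minus strand: tccgtgTGCAGcgggttgctggggccacgg
MRPS24 exon 2, chr7:43869308-43869337, minus strand: gccctgCACACctccccggtctgcgccaag
RPS12 exon 1, chr6:132814584-132814613, plus strand: cgccgaGTCGCgcggaggcggaggcttggg
ETNK1 exon 3, chr12:22659125-22659154, plus strand: aggattTGCAGatgaagacattaataaaag
HM13 exon 3, chr20:31538232-31538261, plus strand: gggaatCCTGGccctgtcccacaccatcag
MED24 exon 3, chr17:40053298-40053327, minus strand: tcctacCTGAAgtatgccattagttcccag
MYO10 exon 2, chr5:16877609-16877638, minus strand: atcgtcGTCTTccggacagactatggtcag
RANBP17 exon 4, chr5:170892524-170892553, plus strand: attattGCTGAtgtgaagaagtttctccag
FAM219B exon 1, chr15:74906587-74906616, minus strand: cgcgcgCACCCtccattcaagccaagctgc
The G or C share of these 30 bases overlapped between the directions: with AURKAIP1 exon 1 (60%, higher) and GFM2 exon 1 (73.3%, lower) included, it ran from 60% to 80.0% in the higher ends and from 30% to 73.3% in the lower ones.

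RPS12 exon 1 carried 451 of 621 counts of its transcript in CASC3-EIF4A3 (72.6%), 67 of 283 in RNPS1-EIF4A3 (23.7%), 273 of 348 in MAGOH-CASC3 (78.4%) and 112 of 261 in MAGOH-RNPS1 (42.9%). Both CASC3 libraries therefore had most of their RPS12 footprints on this exon and neither RNPS1 library did, with a log2 fold change of 3.17 ± 0.37 (SE) for the exon. The other exons of RPS12 had 182 and 96.7 CPM in the EIF4A3 pair and 49.3 and 47.5 in the MAGOH pair, so outside exon 1 the MAGOH pair was nearly level. COMMD6 exon 2 of 5 had 25, 3, 45 and 10 counts, and MRPS24 exon 2 of 4 had 28, 6, 30 and 9. AURKAIP1, a mitochondrial ribosomal protein, joined them with 13, 3, 26 and 8 counts on exon 1 of 4, without a call for the whole transcript.

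Of the 19 exons lower on the CASC3 side, 16 were among exons 1 to 4 of their transcript, beside 19166 of all 51477 tested. The lower exons named here had few counts on the CASC3 side. HM13 exon 3 of 13, in the gene of signal peptide peptidase, had 0 counts in CASC3-EIF4A3, 25 in RNPS1-EIF4A3, 4 in MAGOH-CASC3 and 52 in MAGOH-RNPS1. ETNK1 exon 3 of 8, in an ethanolamine kinase gene, had 0, 18, 2 and 35, and MYO10 exon 2 of 41, in an unconventional myosin gene, had 0, 21, 4 and 36. Fitted folds of exons with a count of 0 depend on the prior count, so only counts are given. MED24 exon 3 of 26, in a Mediator subunit gene, had 1, 32, 4 and 43, and its exons 1 to 5 together held 10.9%, 24.6%, 8.59% and 13.4% of its counts. RANBP17 exon 4 of 28 had 2, 37, 4 and 35, GFM2 exon 1 of 21 had 0, 13, 2 and 35, and ATXN2 exon 12 of 25 had 1, 17, 6 and 57. FAM219B exon 1 of 5 was the best counted, with 13, 104, 25 and 199 and a log2 fold change of -1.84 ± 0.37 (SE).

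A test of exon use within transcripts by diffSpliceDGE with the Simes method called 0 of 7463 transcripts, with 216 at an unadjusted p under 0.05. With at least 10 counts per exon it called 0 of 6646. The exon calls above compare exons with the whole library and not with their own transcript.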

How the data were processed

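RIPiT-Seq footprints and RNA-seq had been counted by the authors. Per the submitters' processing notes, the tools were cutadapt 1.16, TopHat2 2.1.1 and bedtools, with hg38. How features were counted, and on which annotation, is not given in the sources used here. The deposited values are raw read counts for 279143 exons and 49948 transcripts, after 19 blank lines were left out. GENCODE v29 lists 43245 of these transcripts, with 99.5% of the counts of all 15 libraries; 90.5% of exons had the same coordinates there, and 2.82% of exons share their position with another, so a read may count more than once.

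Tests of transcripts, exons and exon use ran in R 4.3.3 with edgeR 4.0.16 (quasi-likelihood, TMM, filterByExpr with a minimum count of 10, adjusted p under 0.05), with the shared partner as a term; DESeq2 1.42.0 was an alternative. The native fits have 1 residual degree of freedom, with a prior of 11.3 degrees of freedom for transcripts and 224 for exons. Standard errors are the log2 fold change over the square root of F. Log2 CPM ratios used a prior count of 2 and were centred on the median over tested transcripts. Each value is relative to its library and does not measure absolute binding. Scripts were tested on simulated data. Replicate numbers pair no native samples: each antibody pair has 1 library, and pairs share a partner by design. The labels do not say that libraries come from separate cultures. The spread behind the p-values, with the part borrowed from other features, may therefore be technical.

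In each direction the 12 transcripts with the largest smaller ratio of the pairs were named, among those with at least 100 counts and an official symbol, those that passed first, then up to 4 members a list by p, and 8 exons in each direction with at least 50 counts. The comparison, the lists and the tests were chosen with earlier results of these data known, and lists therefore support nothing by themselves. In the 28 lists, 1 marker of other cell types was tested. Counting intervals cover counting error only.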

Additional observations from a re-analysis of the deposited data

Results flagged for a closer look

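The median log2 CPM ratios of the pairs had opposite signs in 6 lists: the 5 given here and, with a smaller gap, mRNA export factors (-0.078 and 0.028). The difference between the medians was not tested; over single transcripts, the test of the difference between the pairs passed for 0 of 12572 in edgeR, with 231 at an unadjusted p under 0.05. Transcripts with detained introns, which stay in the nucleus partly spliced, stood at -0.471 in the EIF4A3 pair and 0.079 in the MAGOH pair. CCNL2, a cyclin that is among them, had 459, 907, 751 and 905 CPM in the EIF4A3 pair (CASC3, then RNPS1) and the MAGOH pair (CASC3, then RNPS1). Factors of nonsense-mediated decay stood at -0.271 and 0.018. SR proteins, which guide splice site choice, stood at -0.102 and 0.155, and snoRNA host RNAs at -0.064 and 0.168. Immediate early and unstable regulators stood at 0.254 and -0.07, and NR4A1, an immediate early nuclear receptor, had 46.0, 17.0, 49.3 and 43.4 CPM.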

How the results depend on the processing

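The native transcript calls (19 in all) were 7 without the replicate block, 0 with the spread pooled with crosslinked and RNA-seq libraries, 64 with DESeq2 size factors in edgeR, 113 without a filter, 124 after thinning, and 6 to 33 without 1 library (11 without MAGOH-CASC3). Every native fit without 1 library also dropped the block, so the effects of the library and of the block cannot be told apart there. The native exon calls (173) were 0 without the block, 0 with pooled spread, 85 without a filter, 18 with DESeq2's Wald test, 78 after thinning and 0 to 6 without 1 library. Exon use gave 0 to 1 call without 1 library. The calls of counts after against before the midpoint (70) were 0 without the block, 30 after thinning and 0 to 2 without 1 library. Crosslinked transcripts (612) gave 2819 with the replicate block by library letter, which the labels do not state to be a shared culture, and 352 to 1129 without 1 library. Crosslinked counts about the midpoint (435) gave 0 to 560. Transcripts past a fold of 2 in both pairs (36) were 61 with a prior count of 0.5, 23 with 5, 19 with at least 100 counts and 382 with a fold of 1.5. The causes were not tested. Of 162 recomputed list medians 3 moved by 0.1 or more and 5 changed sign. Shares by exon class moved beyond their counting interval in all 32 recomputations. Depth limits the CASC3 side most, where the smallest library has 935667 counts.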

Other observations

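Some further groups and genes are given by their values. Tubulins and actins (21 tested) had medians of 0.22 in the EIF4A3 pair and 0.13 in the MAGOH pair, and CFL1, the actin-severing protein cofilin, had 260, 175, 178 and 114 CPM in the EIF4A3 pair (CASC3, then RNPS1) and the MAGOH pair (CASC3, then RNPS1). SRP14, a protein of the signal recognition particle whose RNA led the CASC3 side, had 138, 113, 103 and 45.3 CPM, with an unadjusted p of 0.0034 and an adjusted p of 0.39 in edgeR's quasi-likelihood test. RRM2, a subunit of ribonucleotide reductase, had 82.3, 149, 126 and 182 CPM, with both RNPS1 libraries above both CASC3 libraries. SNHG5, a host RNA of snoRNAs, had 41.7, 21.05, 23.0 and 12.1 CPM. mRNA export factors (19) had medians of -0.08 and 0.03 and hnRNP proteins (29) of -0.003 and -0.002, and nuclear noncoding RNAs (16) of 0.09 and 0.31. Of these 16, 4 passed the native test, all higher, beside 0.151% over all transcripts. The 4 are among the 19 called transcripts described above, which include overlapping entries that share reads.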
